A study of Mus musculus with 6 samples.

Results

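The Toll-like receptors are the family of pattern recognition receptors described here. The 10 members, Tlr1, Tlr2, Tlr3, Tlr4, Tlr5, Tlr7, Tlr8, Tlr9, Tlr12 and Tlr13, were chosen by gene symbol from the 40481 genes of the deposited table, and all 10 passed the filter on low counts. Their mRNA was measured by RNA-Seq in 6 pools of mouse liver RNA, 3 from control and 3 from *Mttp-IKO* mice, each pool holding RNA of 3 to 4 male mice (the design text gives 12 livers by genotype). All mice were C57BL/6, 12 to 16 weeks old, and carried floxed Mttp alleles with a Villin-Cre ER T2 transgene. The *Mttp-IKO* mice received tamoxifen at 50 μg/g daily for 5 days, the controls were littermates given vehicle (called wild type in the labels), and after an interval of 3 weeks both groups ate a methionine- and choline-deficient (MCD) diet for 3 weeks and were fasted for 4 h. The Villin promoter drives Cre in intestinal epithelium, so the liver was not the tissue targeted, and no control group without the diet or with tamoxifen alone was analysed here. Mttp, whose product transfers triglyceride to nascent apoB lipoproteins, is also expressed in liver. Its count there was 3646, 6695 and 5607 in control pools 1, 2 and 3 and 4496, 3751 and 3827 in the *Mttp-IKO* pools, which does not check a deletion made in the intestine.

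Toll-like receptors sense microbial products and molecules released by damaged cells through leucine-rich repeats, and signal through a cytoplasmic TIR domain. Surface receptors sense lipids and proteins, namely lipopeptides (Tlr1 and Tlr6, each paired with Tlr2), lipopolysaccharide (Tlr4) and flagellin (Tlr5). Endosomal receptors sense nucleic acids (Tlr3, Tlr7, Tlr8, Tlr9 and Tlr13), and Tlr12, which senses the profilin of protozoan parasites, is also carried to endosomes. In liver they are known mainly from Kupffer cells and other myeloid cells, with some in endothelial and stellate cells and in hepatocytes. MyD88 and TRIF pass the signal to kinases that activate NF-kappaB and interferon regulatory factors.

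The pools held 25271585 to 36238734 reads on genes, and the reads on the 10 members numbered 2803 to 5014 in control and 1468 to 1514 in *Mttp-IKO* pools. Levels are given as CPM, counts relative to the library size scaled by the trimmed mean of M-values (TMM), and between genes as RPKM, the CPM per kilobase of exonic length. Hepatocyte markers were the most abundant of the marker lists in every pool. Control pool 2 held striated muscle RNA (5 markers summed to 553 CPM) and was low in many macrophage genes. Control pool 1 held less muscle RNA (66.5 CPM), and the remaining pools were at 0.461 to 1.03 CPM. *Mttp-IKO* pool 3 had 0.634% of its reads on small RNAs, against 3.60 to 5.27% in the others. Results are therefore also given without control pool 2, without *Mttp-IKO* pool 3 and without both. Those without control pool 1 are given too. A replicate is a pool, so p-values measure the spread between pools, and in whole liver fewer cells of a type and less RNA per cell cannot be told apart.

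All 10 receptors had a lower fitted level in *Mttp-IKO* than in control livers, and 2 of them, the endosomal receptors Tlr12 and Tlr9, passed the test. Their levels in the *Mttp-IKO* pools were 29.4% and 33.6% of the control mean. By edgeR's quasi-likelihood test with Benjamini-Hochberg adjustment over 17287 genes, 3.09% of genes were called lower and 4.01% were called in either direction at an adjusted p of 0.05. The fitted log2 fold changes of the members ran from -1.76 to -0.38, beside a median of 0.01 over all genes tested, of which 49.5% lay below 0. At an unadjusted p under 0.05, 5 members were lower, where 23.0% of all genes tested differed in either direction. In 4 members, Tlr1, Tlr2, Tlr9 and Tlr12, every *Mttp-IKO* pool lay below every control pool, a pattern that 16.5% of all genes tested showed. Before TMM scaling, the members together took 138, 79.5 and 124 CPM in control pools 1, 2 and 3 and 46.7, 46.6 and 58.1 CPM in the *Mttp-IKO* pools, and the groups did not overlap.

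**Figure D1:**
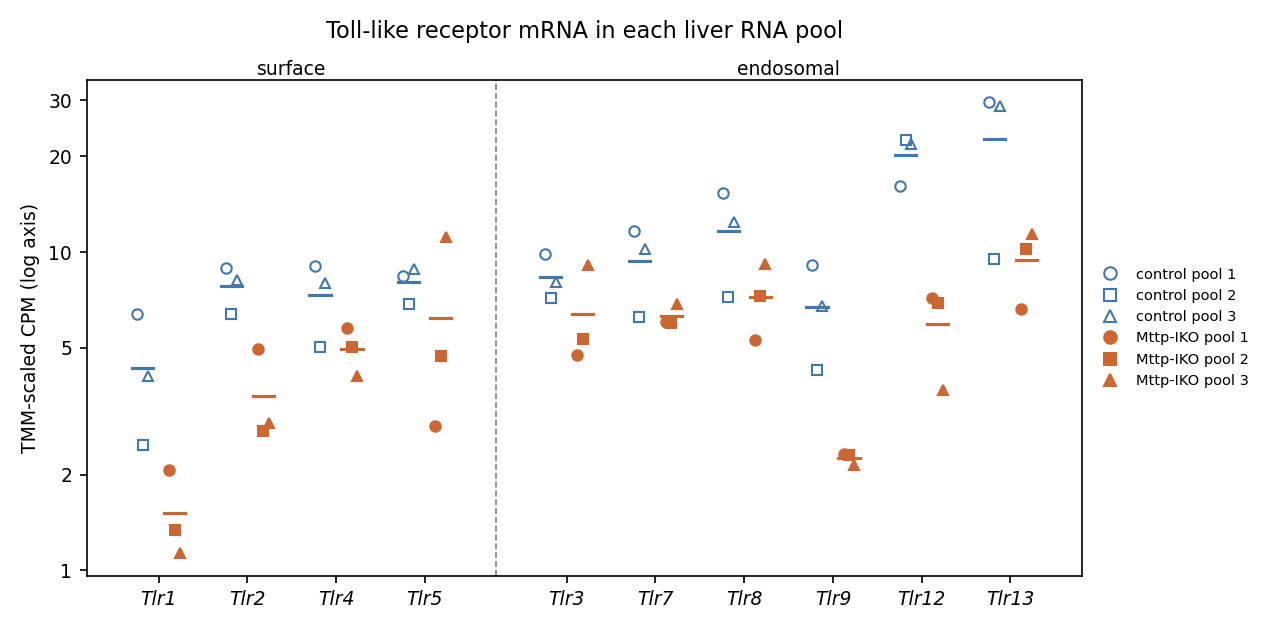
TMM-scaled CPM of each receptor (log axis) in the 3 control pools (open symbols) and the 3 *Mttp-IKO* pools (filled symbols), with symbol shape giving the pool number and horizontal lines the group means. The groups are apart for Tlr1, Tlr2, Tlr9 and Tlr12, and *Mttp-IKO* pool 3 stands above the control pools for Tlr5, at 11.1 CPM.

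The calls depended on single pools. With control pool 2 left out, 4 members were called lower, Tlr1, Tlr9, Tlr12 and Tlr13, where 5.02% of all genes were called. With *Mttp-IKO* pool 3 left out, Tlr12 was the member called, where 4.84% of genes were called. With both left out, a choice made after seeing the data, 8 members were called lower, all but Tlr2 and Tlr4, where 12.3% of genes were called. With control pool 1, control pool 3, *Mttp-IKO* pool 1 or *Mttp-IKO* pool 2 left out, 0 members were called by edgeR, and 4, 4, 4 and 5 were lower at an unadjusted p under 0.05, in that order, where 14.0, 14.2, 24.8 and 18.0% of all genes differed in either direction. Over all genes, 24, 21, 55 and 0 were called in the same order. DESeq2 called 5 members on all pools, Tlr1, Tlr2, Tlr9, Tlr12 and Tlr13 (11.6% of genes called), and limma-voom called Tlr12 (2.48% of genes called).

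**Figure D2:**
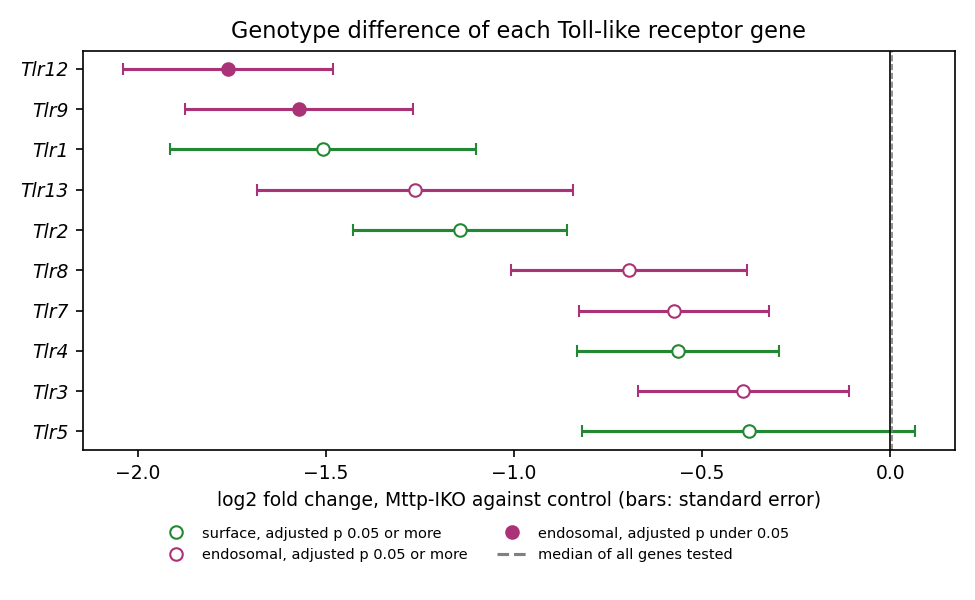
Fitted log2 fold change of each receptor, *Mttp-IKO* against control, with bars of 1 standard error derived from the F statistic (edgeR, 3 pools in each group). Colour separates surface from endosomal receptors, filled points passed an adjusted p of 0.05, and the dashed line is the median of all genes tested. All 10 points lie below 0, from -1.76 for Tlr12 to -0.38 for Tlr5.

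The stretches of the receptor mRNAs that the primers of the study amplify for quantitative PCR are shown for 5 members to tie each name to its transcript, with Tlr12 and Tlr9, which passed the test, followed by Tlr2, Tlr4 and Tlr7. Capitals mark the primer sites, the sequence runs 5′ to 3′ along the mRNA, and each pair matched 1 gene and lay within 1 exon in the coding part.
Tlr12: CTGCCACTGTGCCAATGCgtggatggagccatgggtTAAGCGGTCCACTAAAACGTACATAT
Tlr9: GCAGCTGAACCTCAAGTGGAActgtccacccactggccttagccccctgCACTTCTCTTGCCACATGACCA
Tlr2: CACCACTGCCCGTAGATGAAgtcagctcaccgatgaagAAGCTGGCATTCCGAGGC
Tlr4: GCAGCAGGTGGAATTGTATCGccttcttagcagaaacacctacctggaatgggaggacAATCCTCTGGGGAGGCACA
Tlr7: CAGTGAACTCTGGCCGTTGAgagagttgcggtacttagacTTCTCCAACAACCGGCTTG
In GRCm38 these lie at chr4:128616433-128616494 (minus strand, exon 1 of Tlr12), chr9:106223781-106223851 (plus strand, exon 2 of Tlr9), chr3:83838001-83838056 (minus strand, exon 3 of Tlr2), chr4:66841305-66841381 (plus strand, exon 3 of Tlr4) and chrX:167306823-167306881 (minus strand, exon 5 of Tlr7). The RNA-Seq values count reads over all exons of each gene, not over these stretches.

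Tlr12 (ENSMUSG00000062545), a gene of 1 exon at chr4:128615446-128618619 on the minus strand of GRCm38, stood at 16.1, 22.5 and 21.9 CPM in control pools 1, 2 and 3 and at 7.19, 6.93 and 3.69 CPM in the *Mttp-IKO* pools. The groups did not overlap, control pool 1 was the lowest control, and *Mttp-IKO* pool 3 was the lowest of all. Tlr12 fell by 1.76 on the log2 scale (SE 0.279, adjusted p 0.0223), which is 3.39-fold lower. It was the one endosomal member for which control pool 2 was not the lowest control. It stayed past the threshold without control pool 2 (-1.69, adjusted p 0.0345) and without *Mttp-IKO* pool 3 (-1.51, adjusted p 0.0174), and it lost the call without control pool 1 (adjusted p 0.0777), control pool 3 (0.0933), *Mttp-IKO* pool 1 (0.0613) or *Mttp-IKO* pool 2 (0.0998).

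Tlr9 (ENSMUSG00000045322), the receptor for unmethylated CpG DNA, lies at chr9:106222598-106226883 on the plus strand. Its level was 9.10, 4.27 and 6.75 CPM in control pools 1, 2 and 3 and 2.32, 2.30 and 2.14 CPM in the *Mttp-IKO* pools. The *Mttp-IKO* pools were close to each other, with a coefficient of variation of 4.39%, and the control pools spread over 36.0%. Tlr9 fell by 1.57 on the log2 scale (SE 0.303, adjusted p 0.0351), 2.97-fold lower. The call held without control pool 2 (-1.83, adjusted p 0.0128) and was lost without any other single pool, with adjusted p of 0.127 without control pool 1, 0.127 without control pool 3, 0.0845 without *Mttp-IKO* pool 1, 0.134 without *Mttp-IKO* pool 2 and 0.0543 without *Mttp-IKO* pool 3. Limma-voom gave a log2 fold change of -1.50 with an adjusted p of 0.0641.

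Tlr13 (ENSMUSG00000033777, chrX:106143204-106160493), the receptor for bacterial ribosomal RNA, had the widest spread among the controls, a coefficient of variation of 50.3%. It stood at 29.5, 9.48 and 28.8 CPM in control pools 1, 2 and 3 and at 6.61, 10.3 and 11.4 CPM in the *Mttp-IKO* pools. Control pools 1 and 3 were above every *Mttp-IKO* pool, and control pool 2 lay inside the *Mttp-IKO* range. The log2 fold change was -1.26 (SE 0.420, adjusted p 0.129), and without control pool 2 it was -1.66 (adjusted p 0.0165). DESeq2 called it on all pools (-1.25, adjusted p 0.0306).

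Tlr7 (ENSMUSG00000044583, chrX:167304929-167330558) and Tlr8 (ENSMUSG00000040522, chrX:167242696-167264329), neighbouring genes for receptors of single-stranded RNA, showed the same layout of pools. Tlr7 was at 11.7, 6.24 and 10.2 CPM in control pools 1, 2 and 3 and at 6.03, 6.00 and 6.88 CPM in the *Mttp-IKO* pools. Tlr8 was at 15.3, 7.24 and 12.5 CPM and at 5.29, 7.27 and 9.14 CPM in the same order. In both genes control pool 2 lay within the *Mttp-IKO* range and the other controls lay above it. The log2 fold change was -0.57 for Tlr7 (SE 0.252, adjusted p 0.222) and -0.69 for Tlr8 (SE 0.313, adjusted p 0.234).

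Tlr3 (ENSMUSG00000031639, chr8:45395665-45410608), the receptor for double-stranded RNA that signals through TRIF, was at 9.87, 7.18 and 8.03 CPM in control pools 1, 2 and 3 and at 4.74, 5.35 and 9.10 CPM in the *Mttp-IKO* pools. *Mttp-IKO* pools 1 and 2 were below every control pool, and pool 3 was above control pools 2 and 3. The log2 fold change was -0.39 (SE 0.280, adjusted p 0.442), and it was -0.73 without *Mttp-IKO* pool 3 (adjusted p 0.0871) and -0.21 without *Mttp-IKO* pool 1 (0.666).

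Among the surface receptors, none of the 4 passed edgeR's test, and 2 (Tlr1 and Tlr2) had an unadjusted p under 0.05. Tlr2 (ENSMUSG00000027995, chr3:83836273-83841767), the shared partner for lipopeptide sensing, was at 8.93, 6.40 and 8.15 CPM in control pools 1, 2 and 3 and at 4.96, 2.74 and 2.89 CPM in the *Mttp-IKO* pools. The groups did not overlap, and *Mttp-IKO* pool 1 was nearest to the controls. The log2 fold change was -1.14 (SE 0.284, adjusted p 0.0658), and it passed the threshold with DESeq2 (adjusted p 0.00683), without the filter on low counts (0.0482) and on total counts without TMM (0.0479).

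Tlr1 (ENSMUSG00000044827, chr5:64924811-64932761), which pairs with Tlr2 to sense triacylated lipopeptides, was the least abundant member in reads. It was at 6.40, 2.47 and 4.09 CPM in control pools 1, 2 and 3 and at 2.06, 1.34 and 1.13 CPM in the *Mttp-IKO* pools. The groups did not overlap, but control pool 2 and *Mttp-IKO* pool 1 stood close to each other. The fitted log2 fold change was -1.51 (SE 0.407, adjusted p 0.0804), and without control pool 2 it was -1.80 (adjusted p 0.0414). Of the 50-base stretches of Tlr1 transcripts, 13.6% also occur in Tlr6, and a read lying wholly in such a stretch was counted for neither gene, so the Tlr1 values are uncertain. None of the other members shares such a stretch with another receptor gene, and no exon of a member overlaps an exon of another gene.

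Tlr4 (ENSMUSG00000039005, chr4:66827584-66930284), the lipopolysaccharide receptor, was at 9.05, 5.02 and 7.96 CPM in control pools 1, 2 and 3 and at 5.77, 5.04 and 4.07 CPM in the *Mttp-IKO* pools. Again control pool 2 lay among the *Mttp-IKO* pools. Its log2 fold change was -0.56 (SE 0.268, adjusted p 0.255), and the gene was called in 0 of the 17 alternative settings tried. Tlr5 (ENSMUSG00000079164, chr1:182954788-182976044), the flagellin receptor, was at 8.38, 6.88 and 8.84 CPM in control pools and at 2.84, 4.70 and 11.1 CPM in the *Mttp-IKO* pools. It had the widest spread of the members within the *Mttp-IKO* group, a coefficient of variation of 69.9%, since *Mttp-IKO* pool 3 was the highest of all 6 pools and pool 1 the lowest. For Tlr5 the log2 fold change was -0.38 (SE 0.443, adjusted p 0.649), and it was -1.09 without *Mttp-IKO* pool 3 (adjusted p 0.0653), -0.027 without *Mttp-IKO* pool 1 (0.970) and -0.21 without *Mttp-IKO* pool 2 (0.851).

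Both compartments held receptors with lower levels, and the ones called by edgeR were endosomal. DESeq2 called 2 of the 4 surface and 3 of the 6 endosomal members. The median log2 fold change was -0.85 over the 4 surface members and -0.98 over the 6 endosomal members. Each compartment held 2 members with every *Mttp-IKO* pool below every control pool, as had 16.5% of all genes tested. Summed over the surface members, RPKM was 9.62, 6.11 and 8.45 in control pools 1, 2 and 3 and 4.35, 3.79 and 5.59 in the *Mttp-IKO* pools. Summed over the endosomal members, it was 24.3, 15.8 and 23.7 in control and 8.58, 10.1 and 10.9 in the *Mttp-IKO* pools. Both sums were lower in every *Mttp-IKO* pool than in every control pool. The endosomal share of receptor RPKM was 71.6, 72.2 and 73.7% in control pools and 66.3, 72.6 and 66.0% in *Mttp-IKO* pools, so the groups overlapped. The means were 72.5% ± 1.09 and 68.3% ± 3.73 (SD, n = 3), and with Tlr12 left out they were 64.0% ± 4.48 and 63.4% ± 4.17.

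Within the controls, the highest levels per length belonged to Tlr12, at 6.36 ± 1.11 RPKM, and Tlr13, at 5.53 ± 2.78 RPKM (mean ± SD, n = 3). Tlr8 (3.26 RPKM), Tlr2 (2.60), Tlr5 (2.51), Tlr7 (2.30), Tlr9 (1.93), Tlr3 (1.90), Tlr1 (1.63) and Tlr4 (1.32) followed, and every neighbouring pair in this order overlapped. In the *Mttp-IKO* livers Tlr13 (2.31 RPKM), Tlr8 (2.02) and Tlr5 (1.94) stood above Tlr12 (1.87 RPKM), and Tlr7 (1.54), Tlr3 (1.46), Tlr2 (1.17), Tlr4 (0.893), Tlr9 (0.648) and Tlr1 (0.570) followed. Of the neighbouring pairs there, Tlr4 and Tlr9 did not overlap. Tlr12 thus went from rank 1 to rank 4, with each of the genes near it in rank overlapping in range. As a share of the RPKM of all 10 members, Tlr9 was lower in every *Mttp-IKO* pool (3.73 to 5.16%) than in every control pool (5.60 to 7.72%), while the shares of Tlr7 (10.2 to 11.4% against 6.97 to 8.42%) and Tlr3 (8.34 to 12.6% against 5.68 to 7.45%) were higher. Shares of a whole rise for members that fell less than the rest. The fitted levels of Tlr7 and Tlr3 were lower (log2 fold changes -0.57 and -0.39).

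The family was also compared with macrophage mRNA of the same pools, with reference genes chosen after their values were seen. Csf1r, the receptor for macrophage colony-stimulating factor, is carried by most macrophages and was at 243, 139 and 204 CPM in control and 142, 137 and 102 CPM in the *Mttp-IKO* pools (log2 fold change -0.62, adjusted p 0.174). The RPKM of Tlr4 was 3.27, 3.17 and 3.43% of that of Csf1r in control pools 1, 2 and 3 and 3.59, 3.24 and 3.49% in the *Mttp-IKO* pools. Tlr4 thus kept nearly the same ratio to Csf1r in all 6 pools, control pool 2 included. The ratio of Tlr4 to the summed RPKM of 7 Kupffer cell markers varied more. It was 0.582, 0.507 and 0.562% in control and 0.328, 0.434 and 0.536% in *Mttp-IKO* pools. For Tlr9 the ratio to Csf1r was 5.25, 4.30 and 4.64% in control and 2.30, 2.36 and 2.93% in *Mttp-IKO* pools. For Tlr12 it was 10.2, 24.9 and 16.5% in control and 7.82, 7.80 and 5.55% in *Mttp-IKO* pools. Tlr1, Tlr2, Tlr9 and Tlr12 were the 4 members whose ratio to Csf1r was lower in every *Mttp-IKO* pool than in every control pool, and these 4 were also lower relative to Tlr4 and to the sum of 7 Kupffer cell markers. They are the members already apart in CPM, so these ratios are not a separate result. The share of all genes with such ratios was not counted. The ratio to Csf1r overlapped for the other 6 members, with Tlr5 reaching 16.6% and Tlr3 9.88% in *Mttp-IKO* pool 3.

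**Figure D3:**
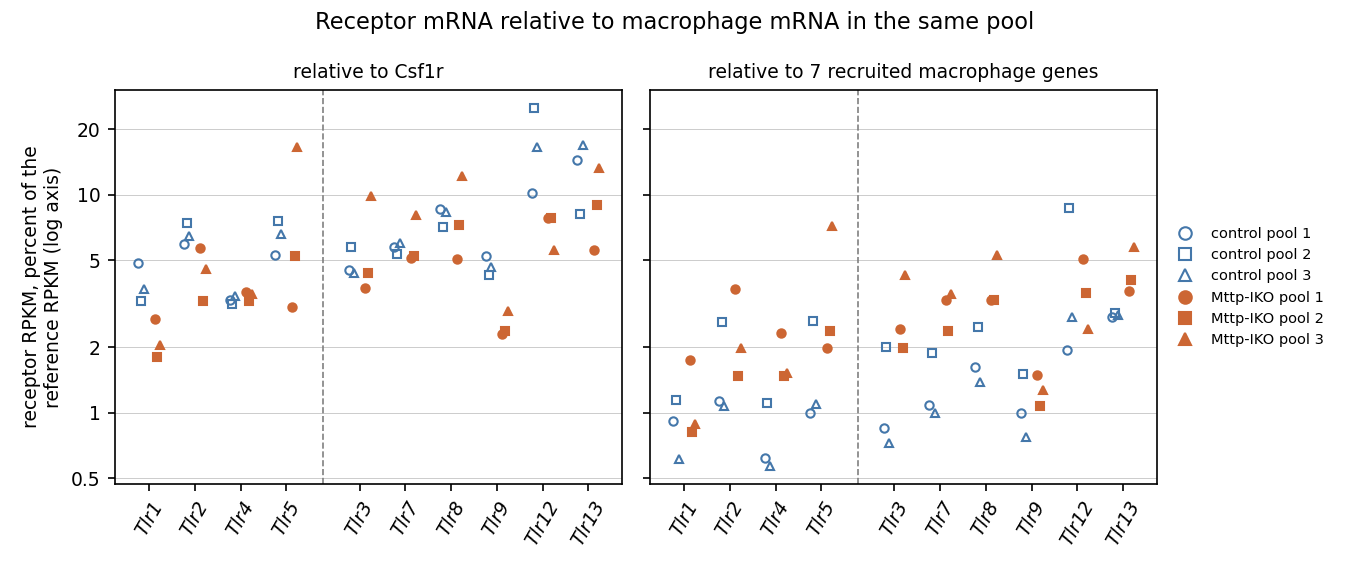
RPKM of each receptor as a percent of the RPKM of Csf1r (left) and of the summed RPKM of 7 recruited macrophage markers (right) in each pool, on a shared log axis, with open symbols for control and filled symbols for *Mttp-IKO* pools. Relative to Csf1r, Tlr4 stays between 3.17 and 3.59% in all pools while Tlr9 is at 4.30 to 5.25% in control and 2.30 to 2.93% in *Mttp-IKO* pools. Relative to the recruited macrophage markers, whose sum was itself lower in every *Mttp-IKO* pool, none of the receptors is lower in all *Mttp-IKO* pools.

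Of the marker lists of immune cells, recruited macrophages had the largest number of genes called lower, while the sums of the Kupffer cell and dendritic cell lists overlapped between the genotypes. The 7 recruited macrophage markers summed to 270 to 840 CPM in control and 108 to 179 CPM in *Mttp-IKO* pools. Of these, 4 of 7 were called lower (Cx3cr1, Ccr2, Itgax and Trem2, with log2 fold changes of -2.78 to -2.20), and none was at 0 in any pool. For this list and those below, 3.09% of all genes tested were called lower by edgeR and 4.01% in either direction. DESeq2 called 11.6% and limma-voom 2.48%, and 23.0% had an unadjusted p under 0.05 by edgeR. Relative to the summed RPKM of this list, Tlr4, Tlr7, Tlr8 and Tlr13 were higher in every *Mttp-IKO* pool than in every control pool, and the other 6 members overlapped. The list itself fell, so a gene that fell less rises against it. These 4 members had lower fitted levels, with log2 fold changes of -1.26 to -0.56. The share of all genes with such ratios was not counted. The 7 Kupffer cell markers, Csf1r among them, summed to 459 to 733 CPM in control and 347 to 724 CPM in *Mttp-IKO* pools, with 1 called higher (Timd4, log2 fold change 1.16, adjusted p 0.0425) and 0 called lower. At an unadjusted p under 0.05, 3 of the 7 were lower (Adgre1, Cd5l and Csf1r) and 2 were higher (Timd4 and Marco). The part of these markers in the receptor results was not tested.

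The other immune lists were small in reads. Of 6 dendritic cell markers, which summed to 27.6 to 38.7 CPM in control and 22.0 to 31.5 CPM in *Mttp-IKO* pools, Flt3 (log2 fold change -2.37, adjusted p 0.0241) and Siglech, a marker of plasmacytoid dendritic cells (-3.58, adjusted p 0.0181), were called lower. A fitted value below 0 was seen in 4 of the 6, and the highest log2 fold change was 0.22. Siglech was at 5.06, 1.69 and 3.62 CPM in control and at 0.322, 0.206 and 0.336 CPM in *Mttp-IKO* pools, where it rested on few reads. Relative to the summed RPKM of the dendritic list, Tlr9 and Tlr12 were lower in every *Mttp-IKO* pool than in every control pool, and the other 8 members overlapped. Both were already apart in CPM, so these ratios are not a separate result. The share of all genes with such ratios was not counted. The 4 B cell markers summed to 2.70 to 3.16 CPM in control and 0.671 to 1.29 CPM in *Mttp-IKO* pools, with Ms4a1 at 0 in a pool and 0 of the 3 tested called by edgeR (2 lower at an unadjusted p under 0.05, and 2 called by DESeq2). The 5 neutrophil markers summed to 13.5 to 27.2 CPM and 11.7 to 19.5 CPM with Ly6g at 0 in most pools, the 4 T cell markers to 3.24 to 6.37 CPM and 1.76 to 3.29 CPM with Cd3d at 0 in a pool, and neither list held a called gene by edgeR or DESeq2. Their part in the receptor results was not tested.

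The 5 stellate cell markers summed to 677 to 1018 CPM in control and 414 to 466 CPM in *Mttp-IKO* pools, with Lrat and Col1a1 called lower, and the 5 hepatocyte markers to 49204 to 81047 CPM and 94660 to 151050 CPM with 0 called by edgeR, 3 higher at an unadjusted p under 0.05 and 3 called by DESeq2. Among the 5 hepatocyte markers, 2 had a fitted value below 0, the lowest at a log2 fold change of -0.55. The endothelial list (292 to 350 and 304 to 355 CPM) and the cholangiocyte list (29.5 to 45.1 and 21.9 to 40.7 CPM) overlapped between the genotypes.

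Of the receptors outside the 10 members, Tlr6, the partner of Tlr2 for diacylated lipopeptides, was at 3.07, 1.36 and 3.31 CPM in control and 1.81, 2.64 and 0.545 CPM in the *Mttp-IKO* pools (log2 fold change -0.62, adjusted p 0.539) and shares stretches with Tlr1. Tlr11, a profilin receptor that pairs with Tlr12, was at 1.02, 0.832 and 1.16 CPM in control and 0.129, 0.480 and 0.252 CPM in *Mttp-IKO* pools. Its groups did not overlap (log2 fold change -1.79, adjusted p 0.0884), but it rested on 4, 14 and 6 reads in the *Mttp-IKO* pools.

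The co-receptors and lipopolysaccharide-handling genes moved in both directions, with 2 of 6 called lower and 1 called higher, beside 4.01% of all genes called in either direction. Lbp, the plasma protein that hands lipopolysaccharide to Cd14, was at 83.1, 95.1 and 90.0 CPM in control and 206, 244 and 194 CPM in *Mttp-IKO* pools and rose by 1.27 on the log2 scale (SE 0.165, adjusted p 0.0175). Cd180, a relative of the Toll-like receptors on B cells and myeloid cells, fell from 14.0, 6.43 and 12.1 CPM to 2.48, 3.81 and 2.06 CPM (log2 fold change -1.96, adjusted p 0.0302). Cd36, a scavenger receptor that serves Tlr2 heterodimers and is also a fatty acid transporter, fell by 1.31 on the log2 scale (adjusted p 0.0358). None of the 6 was called without control pool 1, control pool 3, *Mttp-IKO* pool 1 or *Mttp-IKO* pool 2. The sum of the hepatocyte list, given above, was higher in the pools where Lbp was, though not every marker rose. The part of this list was not tested. The direct partners of Tlr4 did not pass, with Cd14 at 9.43 to 32.0 CPM in control pools and highest, at 73.4 CPM, in *Mttp-IKO* pool 3 (log2 fold change 0.88, adjusted p 0.437) and Ly96, the MD-2 protein, at a log2 fold change of -0.17 (adjusted p 0.784).

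The 14 genes that fold, carry, process or limit the endosomal receptors and their nucleic acid ligands had a median log2 fold change of -0.55, and all 14 fitted values were below 0. By edgeR 0 of 14 were called and 5 were lower at an unadjusted p under 0.05 (23.0% of all genes differed). DESeq2 called 4 (11.6% of all genes), limma-voom 0 and edgeR without control pool 2 called 4 (5.02%). In 7 of 14, every *Mttp-IKO* pool lay below every control pool, beside 16.5% of all genes. Unc93b1, the chaperone that takes nucleic acid receptors from the endoplasmic reticulum to endosomes, was at 112, 71.6 and 98.5 CPM in control and 63.7, 60.5 and 50.7 CPM in *Mttp-IKO* pools, a log2 fold change of -0.69 (adjusted p 0.0946).

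No adaptor or kinase passed the test. Myd88, the adaptor of all members but Tlr3, was at 14.0, 12.8 and 14.1 CPM in control and 11.5, 12.8 and 14.2 CPM in the *Mttp-IKO* pools (log2 fold change -0.09, SE 0.159, adjusted p 0.778). Ticam1, which encodes TRIF, was at 27.3, 29.7 and 31.8 CPM in control and 34.0, 48.5 and 44.6 CPM in *Mttp-IKO* pools (0.52, adjusted p 0.129). By edgeR 0 of 6 adaptors were called, with 3 higher at an unadjusted p under 0.05 and 0 called by DESeq2. The adaptor median log2 fold change was 0.42. Of the 15 kinases and ubiquitin ligases 0 were called, with 2 higher at an unadjusted p under 0.05, 1 called by DESeq2 and a median log2 fold change of 0.07. Every *Mttp-IKO* pool lay above every control pool in 3 of the 6 adaptors and 5 of these 15 genes. The share of all genes with that pattern was not counted. Irak4, the first kinase recruited to MyD88, had a log2 fold change of 0.02 (SE 0.206, adjusted p 0.959), and Traf6, the ubiquitin ligase downstream of it, one of 0.56 (adjusted p 0.223).

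Among 6 transcription factors, Irf7, which MyD88 activates below Tlr7 and Tlr9 and which interferon also induces, was the one called. It fell from 60.7, 55.2 and 53.1 CPM in control to 31.0, 18.0 and 18.8 CPM in *Mttp-IKO* pools, by 1.32 on the log2 scale (SE 0.228, adjusted p 0.0285). Control pool 2 lay between the other controls for this gene, and the call was lost without control pool 1, control pool 3 or *Mttp-IKO* pool 2. Rela, the p65 subunit of NF-kappaB, had a log2 fold change of 0.45 (adjusted p 0.268).

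Of 7 inhibitors, 6 could be tested and 0 were called, with 0 at an unadjusted p under 0.05 and 0 called by DESeq2. Irak3, a kinase-like brake on MyD88 signalling, had a log2 fold change of -0.20 (adjusted p 0.617), and Tnfaip3, the ubiquitin-editing enzyme A20, one of -0.39 (adjusted p 0.431). Of 14 genes that receptor signalling induces, 10 could be tested. They had a median log2 fold change of -1.58, and by edgeR 0 were called, while 5 were lower and 1 higher at an unadjusted p under 0.05, DESeq2 called 5 and limma-voom 0. The 1 higher was Cxcl1 (log2 fold change 1.25, adjusted p 0.126 by edgeR). Summed over the 14 genes, the groups overlapped, at 36.2 to 80.6 CPM in control and 46.3 to 111 CPM in *Mttp-IKO* pools. Tnf was at 2.11, 1.72 and 2.06 CPM in control and 0.935, 0.617 and 0.252 CPM in the *Mttp-IKO* pools (log2 fold change -1.68, adjusted p 0.0760), and Il1b, whose pools overlapped, had a log2 fold change of -0.36 (adjusted p 0.615). Tnf rested on few reads in the *Mttp-IKO* pools, which limits its precision. Il6, Il12b, Ifnb1 and Ptgs2 were below the filter.

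Of 7 genes for endogenous ligands 2 were called lower, both of the extracellular matrix, beside 3.09% of all genes tested. Tnc, tenascin-C, a ligand of Tlr4, was at 22.3, 6.54 and 9.09 CPM in control and 0.774, 1.03 and 0.965 CPM in *Mttp-IKO* pools and fell by 3.78 on the log2 scale (adjusted p 0.0175). Bgn, biglycan, a ligand of Tlr2 and Tlr4, fell by 1.04 on the log2 scale (adjusted p 0.0384). Stellate cell markers, whose sums are given above, were lower in the same pools, and their part was not tested. Neither ligand was called without control pool 3, *Mttp-IKO* pool 1 or *Mttp-IKO* pool 2, and 1 was without control pool 1.

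**Figure D4:**
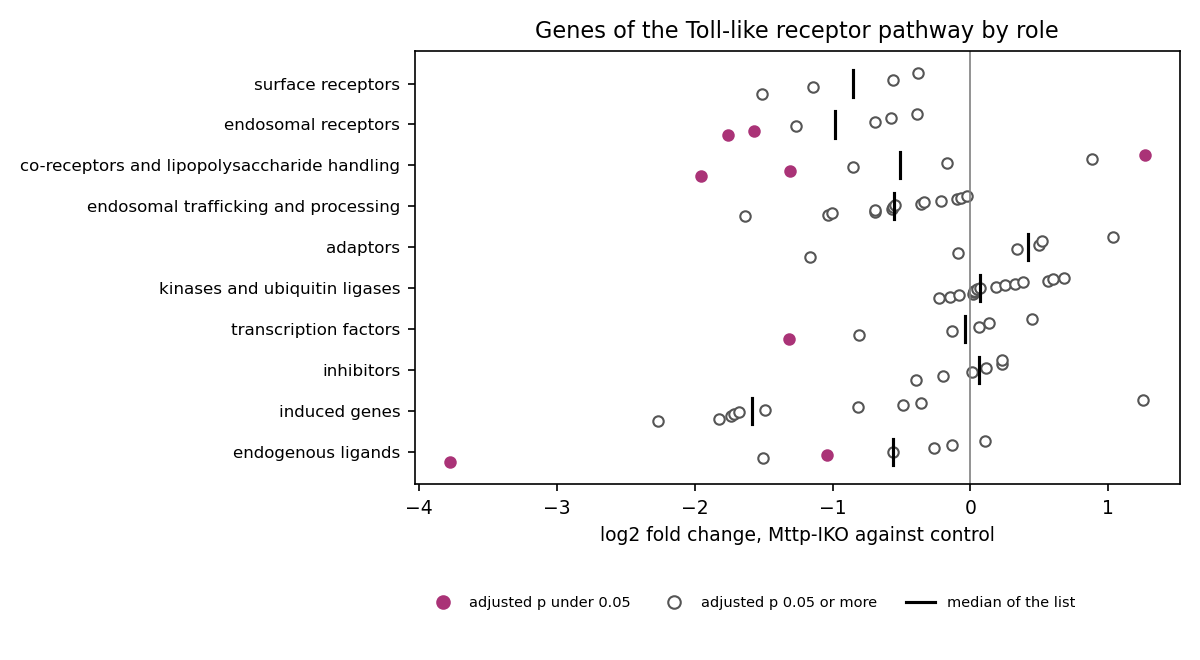
Fitted log2 fold change, *Mttp-IKO* against control, of every tested gene in 10 lists ordered by role (edgeR, 3 pools in each group), with filled points past an adjusted p of 0.05 and vertical bars at the list medians. The receptor medians are -0.85 and -0.98, the kinase median is 0.07 and the median of the induced genes is -1.58.

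The 250 bases before the RefSeq start of Tlr12 and of Tlr9, the members that passed the test, are shown 5′ to 3′ along the gene, from GRCm38.p6. Capitals mark matches, on either strand, to GAGGAA, to the AP-1 motif TGANTCA and to GAAANNGAA, the core of the interferon response element. GAGGAA, which PU.1 of myeloid cells binds, is longer than GGAA, the core of ETS sites, and GGAA alone was not marked.
Tlr12: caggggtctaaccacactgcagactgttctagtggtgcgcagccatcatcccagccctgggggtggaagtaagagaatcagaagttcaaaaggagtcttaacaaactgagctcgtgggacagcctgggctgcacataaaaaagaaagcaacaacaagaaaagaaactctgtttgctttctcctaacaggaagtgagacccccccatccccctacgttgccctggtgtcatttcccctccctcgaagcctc
Tlr9: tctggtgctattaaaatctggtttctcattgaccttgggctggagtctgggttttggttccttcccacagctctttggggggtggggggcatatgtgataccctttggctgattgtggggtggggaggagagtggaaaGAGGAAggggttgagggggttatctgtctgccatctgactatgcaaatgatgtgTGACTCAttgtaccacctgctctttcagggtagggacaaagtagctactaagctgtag
They lie at chr4:128618620-128618869 (minus strand) and chr9:106222348-106222597 (plus strand). The Tlr9 stretch held GAGGAA 112 bases and TGACTCA 58 bases before the start. The Tlr12 stretch held none of the 3 letter strings, though it held the shorter GGAA. RefSeq promoters (250 bases before to 50 after the start) were found for 8 of the 10 members, 9 promoters in all, and GAGGAA was in 4 of them (1 each of Tlr1, Tlr8, Tlr9 and Tlr13), against 28.3% of 32851 promoters. TGANTCA was in 1 (7.81% of all promoters) and GAAANNGAA in 1, that of Tlr8 (8.56%). The motifs did not overlap each other in these stretches, and a match is a description of the letters only. The Tlr9 promoter held 0 CpG dinucleotides and that of Tlr12 held 6, beside a median of 7 over all promoters.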

How the data were processed

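Liver RNA of 6 pools, 3 per genotype, was sequenced after depletion of ribosomal RNA. The authors aligned reads with STAR 2.5.1a to the Ensembl release 76 assembly and deposited read counts per gene from featureCounts 1.4.6-p5 (uniquely aligned, unambiguous reads), so reads shared by near-identical genes were lost. Whether strand was used is not given in the sources used here. The deposited CPM and RPKM follow from these counts and the gene lengths. A deposited table of all pools held 40481 of the 41388 genes, with equal counts and 276 repeated lines, which were dropped.

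Genes were filtered by filterByExpr (minimum count 10, minimum total 15), scaled by TMM (factors 0.898 to 1.11) and tested with edgeR 4.0.16 under R 4.3.3 (quasi-likelihood), and p-values were adjusted by Benjamini-Hochberg over the 17287 genes left, with a threshold of 0.05. The SE of a log2 fold change was derived from that test, as the absolute log2 fold change divided by the square root of the F statistic. The study's methods name no test for differential expression in the RNA-Seq data. Alternatives were DESeq2 1.42.0, limma-voom (limma 3.58.1), other scalings and filters, and leaving out pools. CPM and RPKM printed here are TMM-scaled, except the summed CPM of all members and the limit for a count of 0 (3 reads, 0.0828 to 0.119 CPM, counting error only), which are relative to unscaled totals.

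The members and lists were chosen with earlier results of these data known. Genes named are the members, Tlr6, Tlr11, called genes of each pathway list and a fixed set of key pathway genes. Samples were grouped by their labels. No pools were alike within sampling noise. Promoters came from RefSeq (GRCm38.p6) and primer products from GENCODE M21 transcripts of the same build. Figures used matplotlib 3.10.9.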

Additional observations from a re-analysis of the deposited data

How the results depend on the processing

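All 10 receptors kept a lower fitted level under all 17 alternatives, and none reversed. The count of all genes called was 1995 with DESeq2, 428 with limma-voom, 1658 at a threshold of 0.1 and 5 at 0.01, and ran from 0 (3221 at an unadjusted p under 0.05) to 2146 with pools left out. The count of members called was 5, 1, 4 and 0 under the same 4 settings and ran from 0 to 8. DESeq2 called Tlr1 (-1.50), Tlr2 (-1.13) and Tlr13 (-1.25), limma-voom did not call Tlr9 (-1.50), and Tlr2 passed with no filter (-1.17) and on total counts (-1.32), which moved the median of all genes to -0.17. With pools left out, log2 fold changes ran from -1.80 to -1.12 for Tlr1, -1.47 to -0.99 for Tlr2, -1.20 to -0.027 for Tlr5, -0.84 to -0.21 for Tlr3, -0.87 to -0.41 for Tlr7, -1.16 to -0.47 for Tlr8, -1.83 to -1.31 for Tlr9, -1.92 to -1.43 for Tlr12 and -1.80 to -1.05 for Tlr13, and the surface median from -1.18 to -0.73. The difference in endosomal share, *Mttp-IKO* minus control, was -4.16 percentage points, -0.61 without Tlr12, and -6.31 (without *Mttp-IKO* pool 2) to -3.00 (without *Mttp-IKO* pool 3) with a pool left out. The cause of these shifts was not tested, beyond fewer pools where pools were left out.

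With a replicate block 592 genes were called and Tlr9 (adjusted p 0.0461) and Tlr12 (0.0340) stayed called. Same-numbered pools correlated at 0.139, 0.112 and 0.00698 in their deviations, so the numbers were not taken as pairs, though each control pool correlated best with its own number. Under the block the co-receptor list went from 3 calls to 1, since Cd180 (adjusted p 0.0517) and Cd36 (0.0615) were not called and Lbp was (0.0286). Bgn (0.0652) and Timd4 (0.0611) were not called. Vcan was called lower (log2 fold change -1.53, adjusted p 0.0443) and Cxcl1 higher (1.21, adjusted p 0.0299). Apart from co-receptors and induced genes (0 to 1), the count of calls in each pathway list did not change. Tlr1 in *Mttp-IKO* pools rested on 27 to 64 reads, which limits its precision.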
